A study of Mus musculus with 8 samples.

Results

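Genes that move zinc, iron and copper across membranes, reduce or oxidise these metals, carry them or store them were measured in the colon of Mdr1a-/- mice with a high histological injury score and of FVB/N mice with a low one. The members are the probes whose gene name begins with Slc30a, Slc39a or Steap, or is on a list of iron and copper genes and metallothioneins. They comprise 69 of the 41174 probes in the fit and 45 of the 28098 gene names on them, of which 25 had 1 probe, 16 had 2 and 4 had 3. Hamp, the gene of the iron hormone hepcidin, is in the list by that name but has no probe under it; its probe is listed as Hamp1 and is described separately.

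The Mdr1a-/- group holds 4 male mice on the FVB/N background whose Abcb1a gene, encoding a drug efflux transporter of the epithelium, is disrupted in the germline. The other group holds 4 male wild-type FVB/N mice. All 8 mice ate powdered AIN-76A diet, were 21 to 24 weeks old, and were fasted overnight and briefly refed before the colon was taken. Each mouse has 1 array, on which its Cy3-labelled colon RNA was hybridised against a Cy5-labelled reference, a pool of RNA of Swiss mice from liver, kidney, colon and small intestine and from fetuses. The animals were chosen by their score, high in the Mdr1a-/- group and low in the FVB/N group, so genotype and injury score cannot be told apart.

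Both of the following limits of the labels touch every direction given here. Abcb1a, the disrupted gene, averaged -0.88 ± 0.12 log2(sample / reference) in Mdr1a-/- mice and -0.48 ± 0.35 on the arrays labelled FVB/N (SD, n = 4 each), and its difference of -0.40 ± 0.19 (SE) did not pass the test (limma adjusted p = 0.362). For this probe -1.62 stands in the authors' deposited table (adjusted p = 9.75e-05). The slide number of each array was searched in the protocol text of a single label, not in a list for its own group. That text held the slide numbers of 3 of the 4 Mdr1a-/- arrays and 0 of the 4 arrays labelled FVB/N. The search cannot tell a wrong label from a slide that this text does not list. For Abcb1a, 3 Mdr1a-/- arrays and 4 labelled FVB/N exceeded background, and the groups overlapped; whether it lies in the disrupted part of the gene was not checked. Both group names are therefore labels: Mdr1a-/- mice stands throughout for the 4 arrays labelled so.

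All 8 markers of colon epithelium were above background on all 8 arrays. Between 67.0% and 86.3% of probes per array exceeded the 95th percentile of the negative control spots. Correlations of the probes' values were 0.678 to 0.802 within a group and 0.565 to 0.730 across groups.

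Iron enters epithelial cells through Slc11a2 after reduction by Cybrd1, is held in ferritin, and leaves through ferroportin, which Slc40a1 encodes; the copper-carrying oxidases hephaestin and ceruloplasmin then oxidise it for loading onto transferrin. Macrophages recycle iron from red cells through the same exporter, and hepcidin removes ferroportin from the cell surface. Slc39a proteins raise cytosolic zinc, Slc30a proteins lower it, and metallothioneins bind zinc and copper. The zinc sensor MTF-1 switches on metallothioneins and the zinc exporter Slc30a1 through metal response elements in their promoters.

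These elements share the core TGCACNC or TGCGCNC, which was searched on both strands in RefSeq promoter windows of the GRCm38.p6 build, 300 bases long with 250 bases before the gene's start and 50 after it. Of all 32851 windows, 25.7% held at least 1 core and 1.97% held 3 or more. Windows were matched for 37 of the 45 genes, of which 20 held a core. Among the 50 windows of these 37 genes the shares were 42% with at least 1 and 6% with 3 or more. The genes without a window include Slc40a1, and the windows of Cp held 0 cores. The windows of 3 known MTF-1 targets are printed 5′ to 3′ on the gene's strand because their probes are followed below, and capitals mark the cores. The Mt1 window lies at chr8:94178839-94179138 on the plus strand and holds 3 cores. The Mt2 window lies at chr8:94172368-94172667 on the plus strand and holds 4, of which 2 read on the other strand. The Slc30a1 window lies at chr1:191906531-191906830 on the plus strand and holds 2, both on the other strand. A match to these letters is a description of the window and not a bound site.
Mt1: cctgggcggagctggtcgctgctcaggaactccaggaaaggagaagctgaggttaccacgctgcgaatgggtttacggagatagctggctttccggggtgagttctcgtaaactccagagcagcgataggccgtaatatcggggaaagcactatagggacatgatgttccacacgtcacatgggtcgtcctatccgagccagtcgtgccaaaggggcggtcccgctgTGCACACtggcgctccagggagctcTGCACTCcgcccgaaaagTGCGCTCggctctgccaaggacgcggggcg
Mt2: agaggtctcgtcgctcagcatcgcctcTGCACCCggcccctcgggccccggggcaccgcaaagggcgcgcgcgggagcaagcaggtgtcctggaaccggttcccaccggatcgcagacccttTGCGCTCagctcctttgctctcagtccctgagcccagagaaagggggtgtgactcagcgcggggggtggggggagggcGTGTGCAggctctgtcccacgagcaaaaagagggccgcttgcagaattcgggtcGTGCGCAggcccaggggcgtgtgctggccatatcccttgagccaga
Slc30a1: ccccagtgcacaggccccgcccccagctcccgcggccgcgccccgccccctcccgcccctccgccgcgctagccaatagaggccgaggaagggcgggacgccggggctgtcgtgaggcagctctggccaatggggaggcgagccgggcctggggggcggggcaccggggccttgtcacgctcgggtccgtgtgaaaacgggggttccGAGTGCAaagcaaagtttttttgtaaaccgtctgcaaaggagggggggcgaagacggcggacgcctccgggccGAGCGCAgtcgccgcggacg

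Of the 69 probes, 1 was higher and 1 was lower in Mdr1a-/- colon, and 67 did not pass the test. The test was limma's moderated test with Benjamini-Hochberg adjustment over all 41174 probes, and probes under an adjusted p of 0.05 are called. Over all probes 1.53% were called higher and 1.45% lower, together 2.98%, against 2.9% of the members, so the members as a group were called about as often as all probes. The 2 called genes sit at the same step of iron handling, export from the cell and oxidation after it: Cp rose and Slc40a1 fell. The median log2 fold change was 0.09 over the members and 0.02 over all probes, and the median size of the change was 0.211 against 0.197. The 4 values of each group did not overlap for 11 members (15.9%), 6 higher and 5 lower in Mdr1a-/- mice, against 10.3% of all probes (5.31% higher and 4.94% lower).

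**Figure D1:**
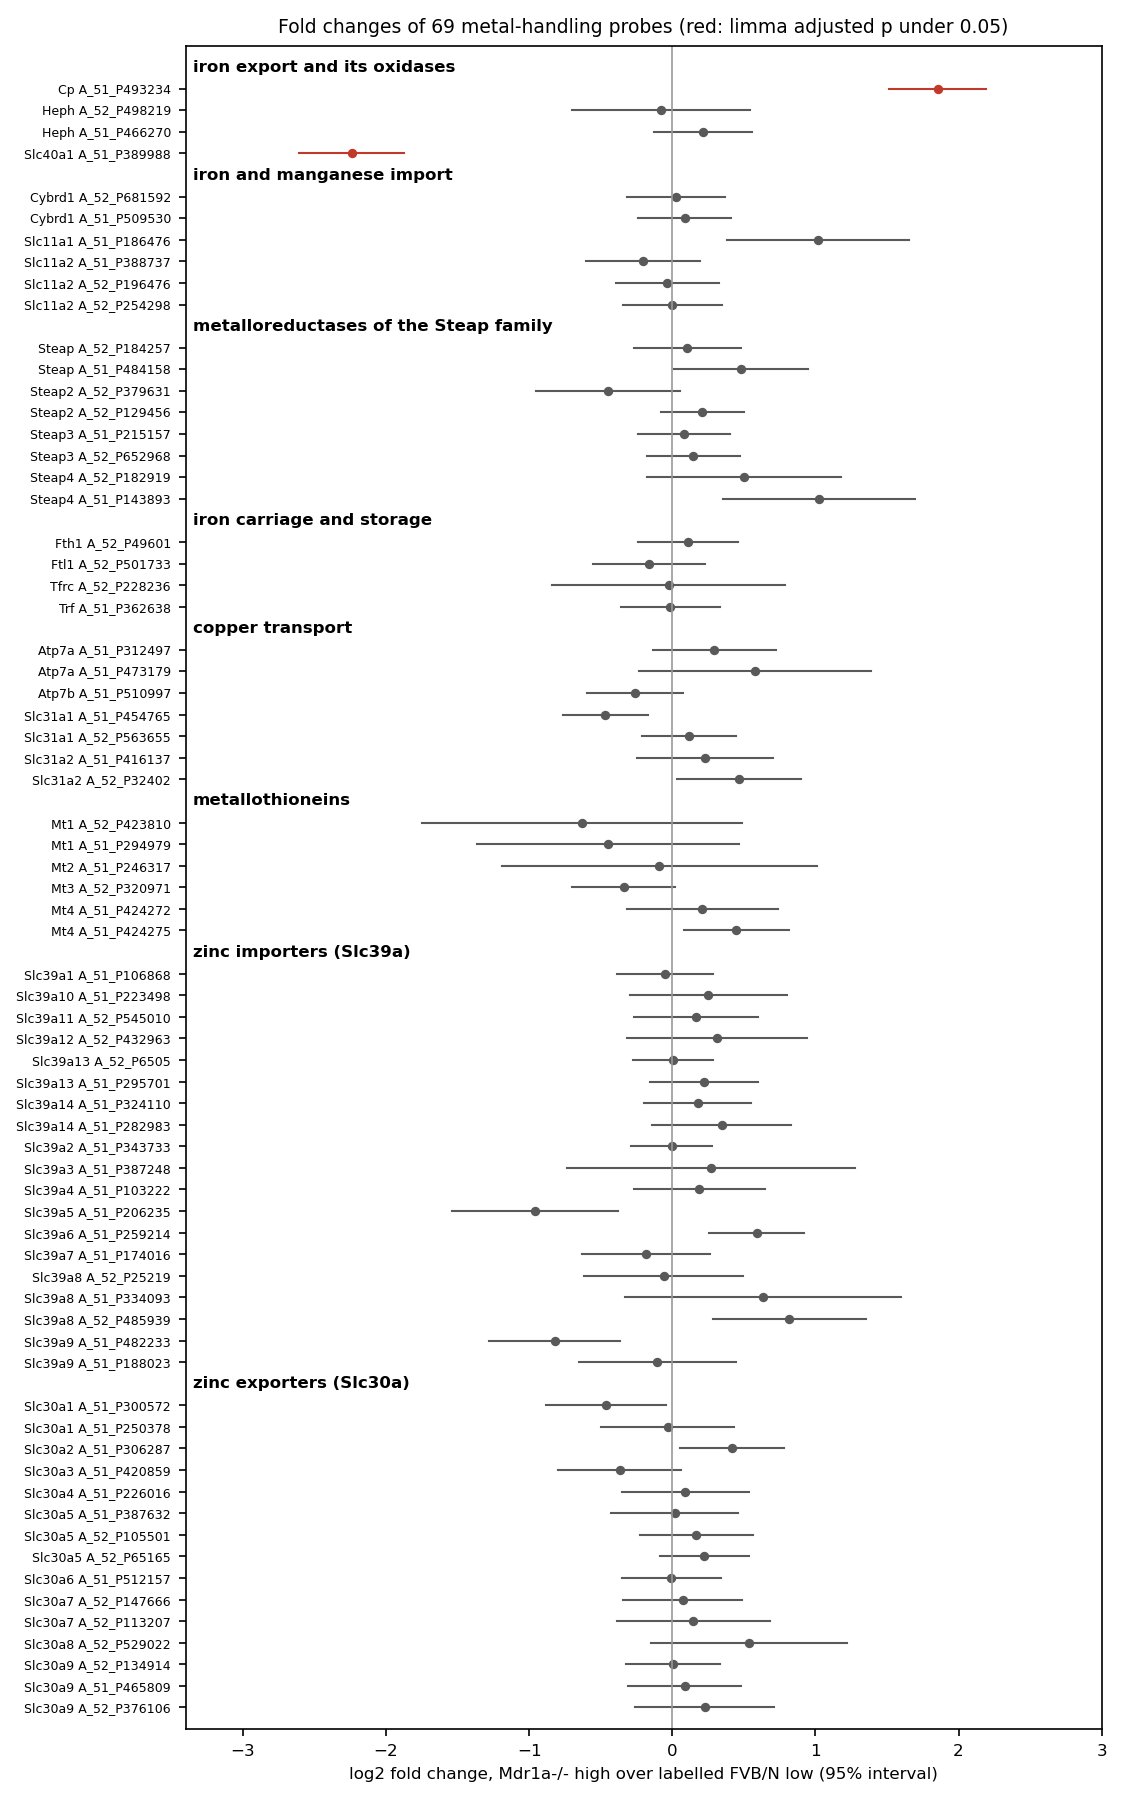
Log2 fold change of each of the 69 probes (x axis, Mdr1a-/- high over labelled FVB/N low, points with 95% intervals), grouped by role down the page. Red marks a limma adjusted p under 0.05; the 2 red intervals are those of Cp, to the right of 0, and Slc40a1, to the left, while uncalled fold changes lie between -0.96 and 1.03.

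Among iron exporters and their oxidases, Slc40a1 had a log2(sample / reference) of -1.29, -1.01, -1.48 and -1.44 in Mdr1a-/- mice, against 0.84, 1.13, 1.07 and 0.72 on the arrays labelled FVB/N (probe A_51_P389988, replicates 1 to 4). All 4 Mdr1a-/- values lay below the reference pool and all 4 values of the labelled FVB/N arrays above it, and the groups were far apart relative to their spread. The mean was -1.30 ± 0.21 in Mdr1a-/- mice and 0.94 ± 0.19 on the arrays labelled FVB/N (SD, n = 4 each). The log2 fold change was -2.24 ± 0.16 (SE; 95% interval -2.61 to -1.87), so Slc40a1 was 4.72-fold lower in Mdr1a-/- colon (limma adjusted p = 0.000994). Leaving out 1 array at a time gave -2.34 to -2.18. Slc40a1 has 1 probe on the array and lies on chromosome 1 in RefSeq.

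Cp, which lies on chromosome 3 and encodes the secreted ferroxidase ceruloplasmin, had -0.62, -1.01, -0.88 and -0.92 log2(sample / reference) in Mdr1a-/- mice, against -2.52, -2.61, -2.85 and -2.85 on the arrays labelled FVB/N (A_51_P493234). All 8 values lay below the reference pool, and those of the Mdr1a-/- mice were all nearer to it. The means were -0.86 ± 0.17 in Mdr1a-/- mice and -2.71 ± 0.17 on the arrays labelled FVB/N (SD, n = 4 each). Its log2 fold change was 1.85 ± 0.15 (SE; 95% interval 1.52 to 2.19), that is 3.61-fold higher (limma adjusted p = 0.000994), and 1.77 to 1.92 without each array in turn. The authors' deposited table gives -1.80 for Slc40a1 (adjusted p = 1.38e-05) and 1.48 for Cp (adjusted p = 2.52e-06).

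The arrays were scanned on 3 days, day 1 with Mdr1a-/- replicate 4 alone and days 2 and 3 with both groups. With scan day as a block, Slc40a1 had a log2 fold change of -2.22 (limma adjusted p = 0.0132) and Cp of 1.86 (limma adjusted p = 0.0146). Within day 2, with 2 arrays in each group, the differences were -2.10 for Slc40a1 and 1.87 for Cp. Within day 3, with Mdr1a-/- replicate 3 alone in its group, they were -2.40 and 1.85. Hephaestin, the membrane-bound relative of ceruloplasmin in enterocytes, gave no call: the bright Heph probe A_51_P466270 had a log2 fold change of 0.22 ± 0.15 (SE; limma adjusted p = 0.584). The second Heph probe, A_52_P498219, was above background on 1 Mdr1a-/- array and on 2 arrays labelled FVB/N, with a value of -0.08. Hepcidin's probe, listed as Hamp1, averaged -2.09 ± 0.14 in Mdr1a-/- mice and -1.81 ± 0.14 on the arrays labelled FVB/N, a log2 fold change of -0.28 ± 0.14 (SE; limma adjusted p = 0.405).

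**Figure D2:**
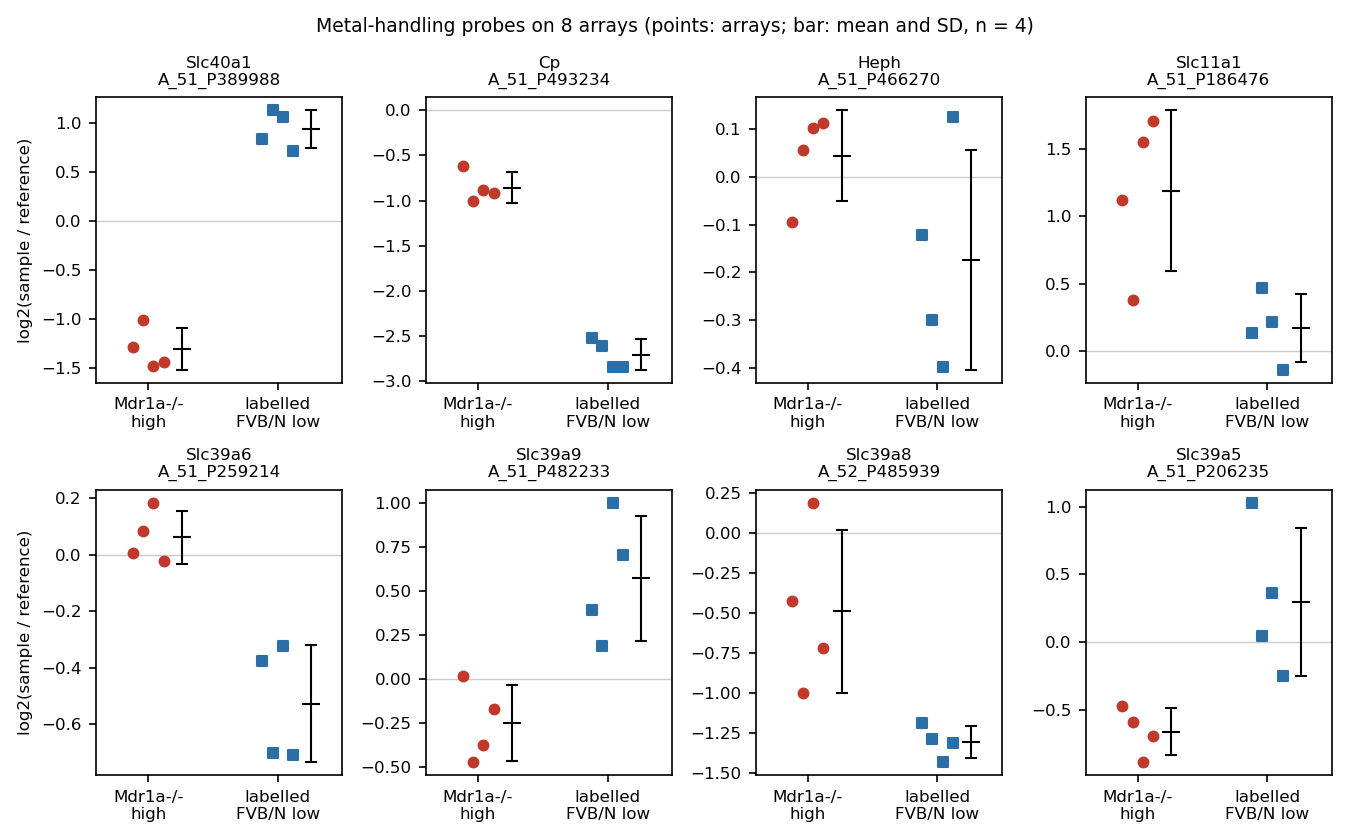
Log2(sample / reference) (y axis, a separate scale in each panel) of 8 probes in 4 Mdr1a-/- mice (red points, left) and on 4 arrays labelled FVB/N (blue squares, right), with mean and SD in black. Slc40a1 and Cp separate the groups by several SDs; Slc39a6, Slc39a9, Slc39a8 and Slc39a5 do not overlap but were not called, and Slc11a1 overlaps because of Mdr1a-/- replicate 2, at 0.38.

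Markers of other cell types moved between the same groups. The mean over 8 absorptive colonocyte markers was -0.58 to -0.06 log2(sample / reference) in Mdr1a-/- mice, against 0.60 to 0.97 on the arrays labelled FVB/N, and 4 of the 8 fell. The mean over 12 macrophage markers was 1.01 to 1.67 in Mdr1a-/- mice and -0.07 to 0.49 on the arrays labelled FVB/N, and 4 of the 12 rose. For 9 neutrophil markers it was 1.01 to 2.33 in Mdr1a-/- mice and -0.82 to -0.15 on the arrays labelled FVB/N, with 3 higher. None of the 8 general epithelial markers was called by limma, and their mean was 0.14 to 0.38 in Mdr1a-/- mice and 0.14 to 0.67 on the arrays labelled FVB/N. All 8 adipose markers had a negative log2 fold change and 0 were called by limma, with means of -0.69 to -0.11 in Mdr1a-/- mice and -0.96 to 1.90 on the arrays labelled FVB/N. Whole colon was measured, so fewer cells of a type and less RNA per cell cannot be told apart, and the part of these cell types in the values of Slc40a1, Cp and the other members was not tested.

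Iron and manganese importers gave no call among 6 probes of 3 genes. Slc11a1, the metal transporter of phagosomes in macrophages and neutrophils, had 1.12, 0.38, 1.55 and 1.70 log2(sample / reference) in Mdr1a-/- mice, against 0.13, 0.47, 0.22 and -0.14 on the arrays labelled FVB/N. Mdr1a-/- replicate 2 lay inside the other group's range and the other 3 above it. The change came to 1.02 ± 0.28 on the log2 scale (SE; limma adjusted p = 0.101). Omitting Mdr1a-/- replicate 2 raised it to 1.29, which was called (limma adjusted p = 0.0174). No other single omission led to a call, and omitting Mdr1a-/- replicate 4 lowered the change to 0.85 (limma adjusted p = 0.249). A fit that blocked on scan day put Slc11a1 at 0.90, not called (limma adjusted p = 0.262). Array weights put it at 1.22, called (limma adjusted p = 0.03). The authors' deposited table gives 0.86 (adjusted p = 0.00268). The same mouse had the lowest mean of the macrophage markers in its group, at 1.01, beside 1.33, 1.35 and 1.67 in replicates 1, 3 and 4; the part of this in the Slc11a1 value was not tested.

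Slc11a2, the iron importer of the brush border, was covered by 3 probes with log2 fold changes of -0.20, -0.03 and -0.00 (limma adjusted p = 0.679, 0.954 and 0.999). Probe A_51_P388737 had -0.08, -0.08, -0.47 and -0.05 in Mdr1a-/- mice, against 0.07, -0.30, 0.37 and 0.01 on the arrays labelled FVB/N. Probe A_52_P196476 had -0.54, -0.47, -0.88 and -0.68 in Mdr1a-/- mice, against -0.78, -0.30, -0.66 and -0.69 on the arrays labelled FVB/N. On both probes the groups overlapped, and replicate 3 was the lowest of the Mdr1a-/- mice. Probe A_52_P254298 had -0.55, -0.18, -0.06 and -0.24 in Mdr1a-/- mice, against -0.27, -0.29, -0.06 and -0.40 on the arrays labelled FVB/N. Cybrd1, the ferric reductase that supplies this importer in the duodenum, had log2 fold changes of 0.03 and 0.09 on its 2 probes.

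The Steap metalloreductases reduce iron and copper, Steap3 in endosomes and Steap4 in adipose tissue and inflamed epithelium among other places. No call was made among 8 probes of 4 genes, of which 7 had a positive log2 fold change. Steap4 had 0.63, 0.24, 0.73 and 1.35 log2(sample / reference) in Mdr1a-/- mice, against 0.37, -0.16, -0.79 and -0.59 on the arrays labelled FVB/N (A_51_P143893). Its highest value on the arrays labelled FVB/N, in replicate 1, exceeded the lowest of the Mdr1a-/- mice, in replicate 2. The change came to 1.03 ± 0.30 on the log2 scale (SE; limma adjusted p = 0.116), and 0.50 on the second probe, which was above background on 4 Mdr1a-/- arrays and on 1 labelled FVB/N. Steap, which RefSeq now names Steap1, had 0.41, -0.06, 0.19 and 0.53 in Mdr1a-/- mice, against -0.33, -0.62, -0.10 and 0.20 on the arrays labelled FVB/N (A_51_P484158). These overlapping values gave a log2 fold change of 0.48 ± 0.21 (SE; limma adjusted p = 0.321), and the second Steap probe gave 0.11. In the authors' deposited table Steap4 has 0.74 (adjusted p = 0.0295) and Steap 0.50 (adjusted p = 0.0258). The 2 probes of Steap2 disagreed in sign, at 0.21 and -0.45, and those of Steap3 had 0.08 and 0.15.

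Iron carriage and storage gave no call, with log2 fold changes of -0.16 to 0.11 over 4 probes of 4 genes. Tfrc, the transferrin receptor that brings iron into dividing cells, had 1.02, -0.94, -0.02 and 0.23 log2(sample / reference) in Mdr1a-/- mice, against 0.19, -0.21, -0.05 and 0.46 on the arrays labelled FVB/N. The Mdr1a-/- mice enclosed the other group on both sides, and the log2 fold change of -0.02 ± 0.36 (SE) did not pass the test (limma adjusted p = 0.987). The ferritin heavy chain gene Fth1 had a log2 fold change of 0.11, the light chain gene Ftl1 had -0.16 and the transferrin gene Trf had -0.01. The Cy5 signal of the reference was near saturation, at or above 60000, on 6 arrays for Fth1, 7 for Ftl1 and 6 for Trf, which limits the size of these ratios. Ferritin and Tfrc are regulated after transcription by iron regulatory proteins, so an mRNA level on an array does not give the protein.

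Copper transport gave no call among 7 probes of 4 genes. Slc31a1, the high-affinity copper importer, had -0.69, -0.94, -0.88 and -1.02 log2(sample / reference) in Mdr1a-/- mice, against -0.38, -0.46, -0.33 and -0.48 on the arrays labelled FVB/N (A_51_P454765). The groups did not overlap, and Slc31a1 differed by -0.47 ± 0.13 on the log2 scale (SE; limma adjusted p = 0.105). Its second probe, A_52_P563655, gave 0.12 (limma adjusted p = 0.792), and the authors' deposited table gives that probe 0.33 (adjusted p = 0.0163), so the probes of this gene disagree in direction. Slc31a2, a relative of the importer found in endosomes and lysosomes, had 0.81, 0.53, 0.91 and 1.31 in Mdr1a-/- mice, against 0.43, 0.65, 0.14 and 0.48 on the arrays labelled FVB/N (A_52_P32402). The groups overlapped, with a log2 fold change of 0.47 ± 0.19 (SE; limma adjusted p = 0.292) and 0.23 on the other probe. The copper pump Atp7a, which hands copper from enterocytes to the blood, had 0.29 and 0.58 on its 2 probes, and its liver counterpart Atp7b had -0.26.

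Neither Mt1 nor Mt2, the metallothioneins of most tissues, was called, and both varied widely between mice of the same group. Mt1 probe A_51_P294979 had -1.23, -1.61, -0.18 and -1.44 log2(sample / reference) in Mdr1a-/- mice, against -0.74, 0.26, -0.64 and -1.55 on the arrays labelled FVB/N. Mt1 probe A_52_P423810 had -0.11, -0.24, 0.37 and -0.17 in Mdr1a-/- mice, against -0.16, 2.32, 0.36 and -0.16 on the arrays labelled FVB/N. Mt2 had -1.22, -1.03, 0.50 and -0.43 in Mdr1a-/- mice, against -0.41, 0.47, -0.18 and -1.70 on the arrays labelled FVB/N. On all 3 probes replicate 3 was the highest Mdr1a-/- mouse and replicate 2 the highest array labelled FVB/N.

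The log2 fold changes were -0.45 ± 0.41 and -0.63 ± 0.50 for Mt1 and -0.09 ± 0.49 for Mt2 (SE; limma adjusted p = 0.695, 0.641 and 0.961). For Mt2 the 95% interval ran from -1.19 to 1.01, so with 4 mice in each group the data allow changes up to those sizes in either direction. The SD between mice of the same group was 0.692 and 0.858 for the Mt1 probes and 0.843 for Mt2, above those of 94.5%, 98.1% and 97.9% of all probes, whose median was 0.293. Within scan day 2 the Mt2 difference was -0.83 and within day 3 it was 1.12. For Mt1 probe A_51_P294979 the values were -0.73 and 0.46, so the sign also differed between days. For the other Mt1 probe, A_52_P423810, they were -0.28 and -0.71, with the same sign on both days. Its day 3 value includes labelled FVB/N replicate 2, at 2.32. Without that array the log2 fold change of this probe over all days was -0.05. Day 3 has 1 Mdr1a-/- array, that of replicate 3, the highest of its group on these probes. This mouse and the scan day cannot be told apart. The Cy5 signal of the Mt2 probe was near saturation on 7 arrays. Labelled FVB/N replicate 2, the highest of its group for Mt1 and Mt2, also had the highest mean of the adipose markers, at 1.90, and of the pancreatic acinar markers, at 1.77; the part of either in the metallothionein values was not tested.

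**Figure D3:**
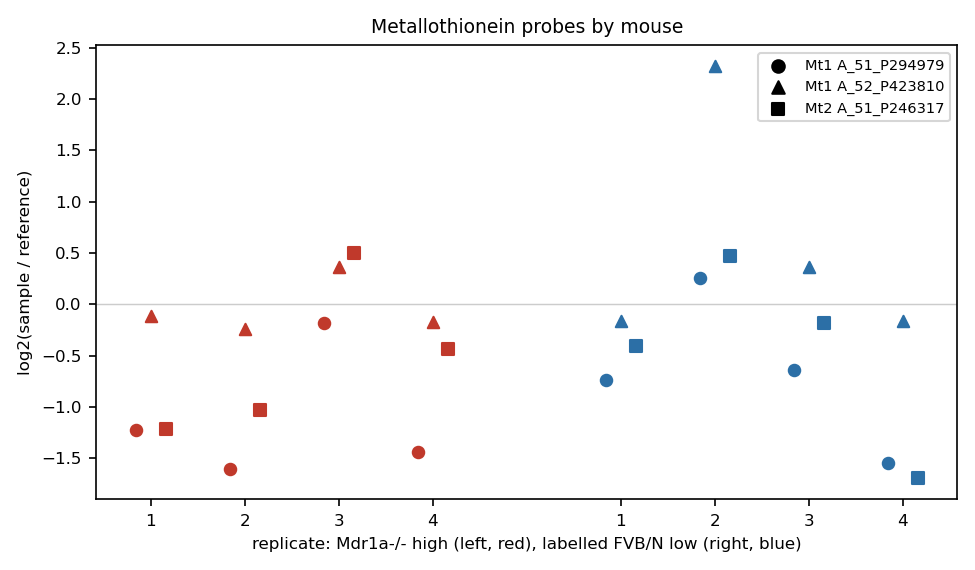
Log2(sample / reference) (y axis) of both Mt1 probes and the Mt2 probe in each mouse (x axis, replicate), with Mdr1a-/- mice in red on the left and arrays labelled FVB/N in blue on the right. For Mt1 probe A_51_P294979 and for Mt2 the mice of each group spread over more than the difference between groups; replicate 2 of the labelled FVB/N arrays stands at 2.32 on one Mt1 probe.

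Mt3 and Mt4 are mainly expressed in brain and in stratified epithelium. Mt3 had a log2 fold change of -0.34 ± 0.16 (SE; limma adjusted p = 0.372), with groups that did not overlap. Mt4 probe A_51_P424275 had -2.06, -2.06, -1.90 and -1.98 in Mdr1a-/- mice, against -2.55, -2.35, -2.76 and -2.11 on the arrays labelled FVB/N. These values did not overlap, but the probe was above background on 0 Mdr1a-/- arrays and on 1 labelled FVB/N, so no fold is given (limma adjusted p = 0.223). In the authors' deposited table it is called, at 0.37 (adjusted p = 0.0127). The second Mt4 probe, A_51_P424272, was above background on all arrays, and its groups overlapped. It had a log2 fold change of 0.21 ± 0.23 (SE; limma adjusted p = 0.757), and 0.41 in the authors' deposited table (adjusted p = 0.0872).

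Zinc importers of the Slc39a family gave no call among 19 probes of 14 genes, with log2 fold changes of -0.96 to 0.82. Slc39a6, a plasma membrane importer, had 0.00, 0.08, 0.18 and -0.02 log2(sample / reference) in Mdr1a-/- mice, against -0.38, -0.70, -0.32 and -0.71 on the arrays labelled FVB/N. Slc39a9, an importer that lies in the Golgi and at the plasma membrane, had 0.02, -0.47, -0.37 and -0.17 in Mdr1a-/- mice, against 0.39, 0.19, 1.00 and 0.71 on the arrays labelled FVB/N (A_51_P482233). Neither gene's groups overlapped, and both missed the threshold narrowly. The log2 fold change of Slc39a6 was 0.59 ± 0.15 (SE; limma adjusted p = 0.0712), and that of Slc39a9 was -0.82 ± 0.20 (SE; limma adjusted p = 0.069). The second Slc39a9 probe, A_51_P188023, gave -0.10 (limma adjusted p = 0.897). Both were called without background subtraction, with dim probes left out and with array weights. With scan day as a block neither was called (limma adjusted p = 0.239 for Slc39a6 and 0.191 for Slc39a9). Leaving out single arrays called neither, and the limma adjusted p reached 0.186 for Slc39a6 and 0.171 for Slc39a9. The authors' deposited table has 0.61 for Slc39a6 (adjusted p = 0.00192) and -0.52 for Slc39a9 (adjusted p = 0.0292).

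Slc39a5, a zinc importer of the basolateral membrane of enterocytes that the pancreas also expresses, had -0.47, -0.59, -0.89 and -0.70 in Mdr1a-/- mice, against 1.03, 0.04, 0.36 and -0.25 on the arrays labelled FVB/N. Its groups did not overlap; it was above background on 2 Mdr1a-/- arrays and on 4 labelled FVB/N, and it differed by -0.96 ± 0.26 on the log2 scale (SE; limma adjusted p = 0.0921). The mean over 10 pancreatic acinar markers was 1.00, -1.42, -1.44 and -0.78 in Mdr1a-/- mice, against 0.16, 1.77, 1.26 and 0.05 on the arrays labelled FVB/N, with 0 of 10 called by limma; its part in the Slc39a5 value was not tested.

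Slc39a8, an importer of zinc and manganese, had -0.43, -1.005, 0.19 and -0.72 log2(sample / reference) in Mdr1a-/- mice, against -1.19, -1.29, -1.43 and -1.32 on the arrays labelled FVB/N (A_52_P485939). The lowest Mdr1a-/- mouse still lay above all 4 of the other group, and the difference was 0.82 ± 0.24 on the log2 scale (SE; limma adjusted p = 0.116). Its other probes gave 0.64, on a probe above background on no array, and -0.06. Slc39a4, the brush border zinc importer whose loss causes acrodermatitis enteropathica in humans, had 0.06, -0.35, -0.02 and 0.44 in Mdr1a-/- mice, against -0.29, -0.46, 0.12 and 0.00 on the arrays labelled FVB/N. These overlapped, at a log2 fold change of 0.19 ± 0.20 (SE; limma adjusted p = 0.748). Slc39a14, an acute-phase importer of the liver, had 0.35 (limma adjusted p = 0.526) and 0.18, and the authors' deposited table calls the first of these probes at 0.45 (adjusted p = 0.0272).

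Zinc exporters of the Slc30a family gave no call among 15 probes of 9 genes, with log2 fold changes of -0.46 to 0.54. Slc30a1, the plasma membrane zinc exporter whose promoter is printed above, had -0.10, -0.72, -0.51 and -0.53 in Mdr1a-/- mice, against -0.17, 0.11, 0.31 and -0.26 on the arrays labelled FVB/N (A_51_P300572). The groups overlapped, at -0.46 ± 0.19 (SE; limma adjusted p = 0.282), and the second probe gave -0.03. Slc30a2, which loads zinc into secretory vesicles, had -2.66, -2.35, -2.47 and -2.68 in Mdr1a-/- mice, against -2.86, -2.85, -2.81 and -3.31 on the arrays labelled FVB/N. These did not overlap, and the difference was 0.42 ± 0.16 on the log2 scale (SE; limma adjusted p = 0.255). The Slc30a5, Slc30a6 and Slc30a7 proteins supply zinc to the secretory pathway, and none of their 6 probes was called by limma. Slc30a5 probe A_52_P65165 was above background on 0 Mdr1a-/- arrays and Slc30a7 probe A_52_P113207 on 0 of all 8; the log2 fold changes of the other 4 lay between -0.01 and 0.17. Slc30a8, the zinc transporter of insulin granules, had 0.54 ± 0.31 (SE; limma adjusted p = 0.476).

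Other genes of metal handling, from a list of 47 names of which 45 were measured, gave 3 probes higher and 1 lower, or 8.89% against 2.98% of all probes. The list was written with earlier results of these data known. The products of S100a8 and S100a9 form calprotectin, the zinc- and manganese-binding protein of neutrophils. S100a8 had 4.08, 2.69, 3.24 and 2.44 log2(sample / reference) in Mdr1a-/- mice, against -0.31, -1.38, -2.95 and -1.65 on the arrays labelled FVB/N, a log2 fold change of 4.69 ± 0.54 (SE; limma adjusted p = 0.0029). S100a9 had 3.21, 3.12, 2.83 and 1.89 in Mdr1a-/- mice, against -0.57, -1.16, -2.91 and -1.03 on the arrays labelled FVB/N, a log2 fold change of 4.18 ± 0.49 (SE; limma adjusted p = 0.00332). Neither gene's groups overlapped, and both are also in the list of neutrophil markers. The Cy3 signal of S100a8 was near saturation, at or above 60000, on 2 Mdr1a-/- arrays, and only 2 arrays labelled FVB/N had it above background. That of S100a9 was near saturation on 3 Mdr1a-/- arrays, so neither fold change has an exact size.

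Ltf, encoding the iron-binding lactoferrin of neutrophil granules, had 1.43, 0.44, 1.79 and 1.90 in Mdr1a-/- mice, against -0.32, -0.18, -0.18 and -0.21 on the arrays labelled FVB/N. It rose by 1.61 ± 0.29 (SE; limma adjusted p = 0.02), but the adjusted p reached 0.0641 when arrays were left out in turn, and stayed under 0.05 only without Mdr1a-/- replicate 2 or replicate 3; blocking on scan day gave 0.0782. Bmp2, one of the ligands that drive hepcidin transcription in the liver, had -1.73, -1.33, -1.74 and -1.61 in Mdr1a-/- mice, against -0.35, -0.12, -0.29 and -0.74 on the arrays labelled FVB/N. It fell by 1.23 on the log2 scale (SE 0.17; limma adjusted p = 0.00707), with an adjusted p of 0.0587 with scan day as a block.

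The 3 uncalled genes of this list with the smallest p were the following. Slc46a1, a folate and heme transporter of enterocytes, had -1.81, -1.06, -2.16 and -1.97 in Mdr1a-/- mice, against -0.55, -0.97, -0.54 and -0.96 on the arrays labelled FVB/N, a log2 fold change of -0.99 ± 0.24 (SE; limma adjusted p = 0.0689). Scara5, a ferritin receptor, had 1.24, 0.81, 1.499 and 1.06 in Mdr1a-/- mice, against 0.70, 0.27, 0.29 and -0.07 on the arrays labelled FVB/N, a log2 fold change of 0.85 ± 0.21 (SE; limma adjusted p = 0.0654). The heme exporter Flvcr1 had 0.30, -0.06, 0.29 and 0.19 in Mdr1a-/- mice, against -0.29, -0.99, -0.42 and -0.45 on the arrays labelled FVB/N, a log2 fold change of 0.72 ± 0.18 (SE; limma adjusted p = 0.0752). The groups did not overlap for any of the 3. Hmox1, which breaks down heme, had 0.52 (limma adjusted p = 0.426), and Mtf1, the gene of the zinc sensor, had -0.10.

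A value is given for 67 of the 69 probes in the authors' deposited table, and 8 are higher and 2 lower at an adjusted p under 0.05. That is 14.9% of the members, against 10.6% of all probes with a value in that table, of which 6.3% are higher and 4.35% lower. Slc40a1 and Cp are called there as in the fit of the arrays, in the same directions. The table's t and p imply 18.7 degrees of freedom, against 9.41 in the fit of the 8 arrays. Across probes its fold changes correlated with those of the fit at 0.777, with a slope of 0.621. The table therefore rests on a different fit, and its values are not on the same footing as those of the arrays.

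**Figure D4:**
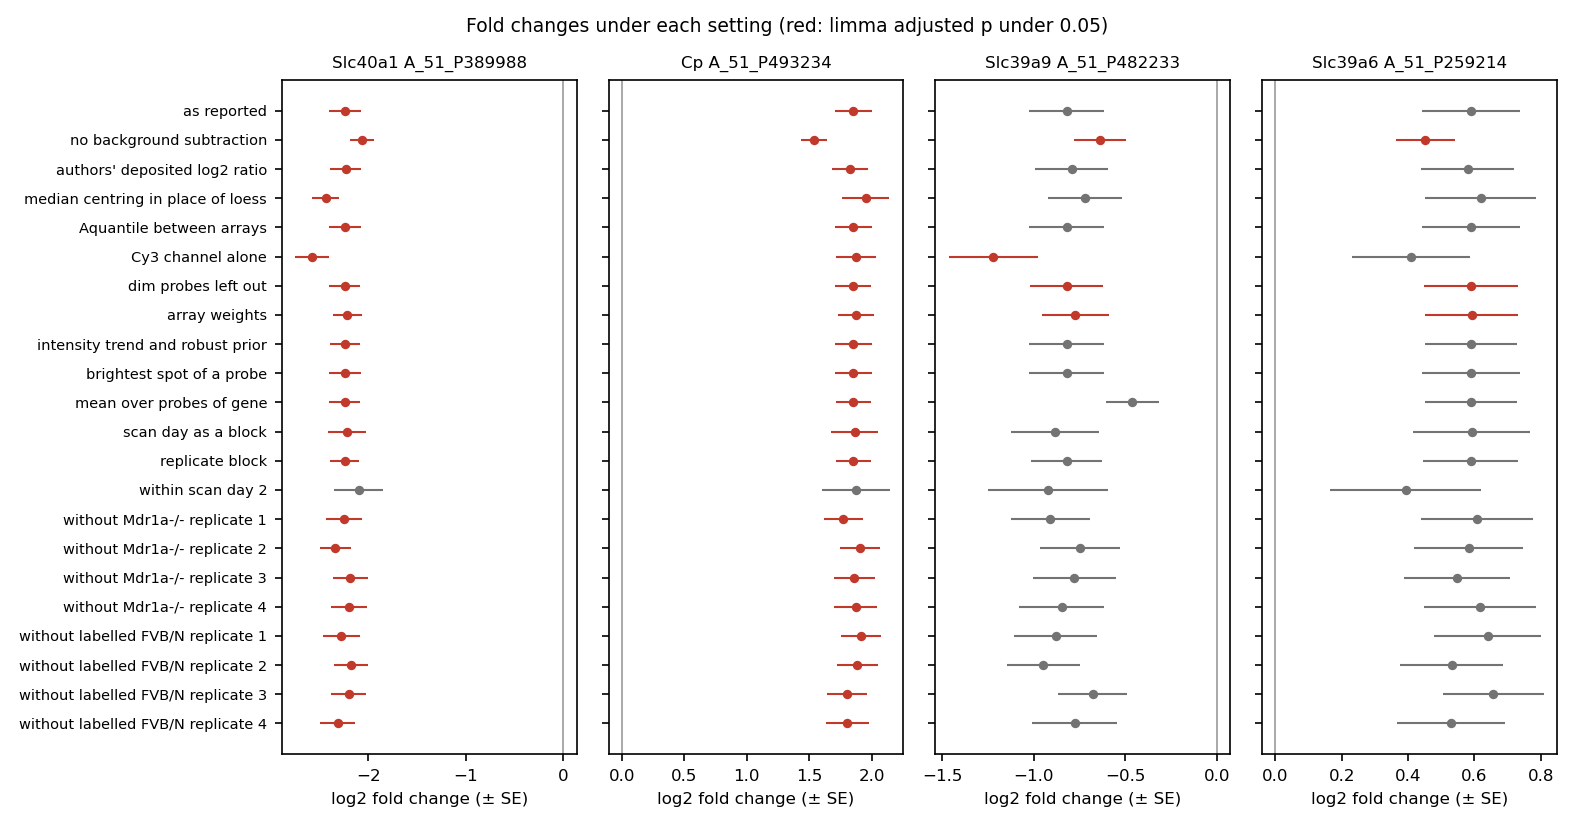
Log2 fold change with its SE (x axis, a separate scale in each panel) of Slc40a1, Cp, Slc39a9 and Slc39a6 under each processing setting (rows), Mdr1a-/- high over labelled FVB/N low; red marks a limma adjusted p under 0.05. Slc40a1 and Cp are red in every row except within scan day 2, while Slc39a9 and Slc39a6 are red in 4 and 3 alternatives.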

How the data were processed

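Colon RNA of 4 Mdr1a-/- and 4 labelled FVB/N mice was measured, 1 two-colour Agilent array per mouse, with no dye swap. Per the file headers, the deposited array files hold mean foreground and background intensities of every spot for Cy3 and Cy5. They also give a log2 ratio that the authors made; the submitters' processing notes name limma. Background subtraction and loess of Cy5 over Cy3 rebuilt these deposited log2 values to within 2.7e-13, so they run as reference over sample, while the deposited description states the other direction. The authors' deposited table gives, per spot, a p-value before and after adjustment, a fold change and a t score. The description calls the fold changes log10, but their slope on log2 fold changes without background subtraction was 0.87, so they are read as log2. A series-wide deposited table holds the same log2 values (largest difference 4.9e-08) and was not used further. What program read the images is not stated in the labels or headers used.

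Analysis from intensities used limma 3.58.1 (R 4.3.3): normexp with an offset of 50, loess within arrays with control and unnamed spots at weight 0, mean over spots of a probe, and lmFit with eBayes over all 41174 probes, without covariates. The sign-turned deposited log2 ratio was an alternative. Probes above background exceeded, after subtraction, the 95th percentile of 314 negative control spots in Cy3. Scripts were tested on simulated data. The number of arrays limits the precision.

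Members, lists and tests were chosen with earlier results of these data known. Values on every array are given for called members, for the 12 further genes with the smallest p, and for Mt1, Mt2, Tfrc, Slc40a1, Slc11a2 and Slc39a4; of the list of other metal genes, for called genes and the 3 with the smallest p. Correlations between members were planned but are not given. Of the marker lists, plasma cell and smooth muscle genes had no call by limma, and 1 of 7 goblet cell genes was lower; a further list is not reported here.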

Additional observations from a re-analysis of the deposited data

Results flagged for a closer look

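In a group of 4 arrays, a value was marked when its gap to the nearest other value, over the range of the group, exceeded Dixon's 95% critical value. This marked 6 of 138 groups of member values, and chance marks about 1 in 20. Slc39a3 was at 1.62 log2(sample / reference) in Mdr1a-/- replicate 1, against -0.60 to -0.38 in the other 3. Mdr1a-/- replicate 3 was low on the Slc11a2 probe A_51_P388737, at -0.47 beside -0.08 to -0.05, and on Slc30a6, at -0.49 beside -0.07 to 0.00. Slc30a1 probe A_51_P250378 was at -0.96 in Mdr1a-/- replicate 2, beside -0.49 to -0.41. Among the arrays labelled FVB/N, Slc30a2 was at -3.31 in replicate 4 beside -2.86 to -2.81, and Slc39a1 was at 0.32 in replicate 3 beside -0.03 to -0.01. None of these probes was called by limma at an adjusted p under 0.05.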

How the results depend on the processing

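Slc40a1 and Cp kept their call and direction in 20 of 21 tested alternatives, with log2 fold changes of -2.57 to -1.80 and of 1.48 to 1.95 when the authors' deposited table is included. The exception was the fit within scan day 2, with 2 arrays in each group: -2.10 for Slc40a1 (limma adjusted p = 0.182) and 1.87 for Cp (limma adjusted p = 0.194). That fit called 0 members higher and 0 lower, with 8 members at an unadjusted p under 0.05, and it has fewer samples. Some of the 20 could hardly differ from the reported fit. Quantile scaling of mean intensities between arrays repeats it exactly. Taking the brightest spot changes no member value, since no member probe was spotted more than once. Averaging over probes cannot move the fold changes of Slc40a1 and Cp, which have 1 probe each. The counts of 1 higher and 1 lower member became 2 and 3 at an adjusted p under 0.10, 2 and 2 without background subtraction, 2 and 2 of 63 with dim probes left out, and 3 and 2 with array weights. The Cy3 channel alone called 2 lower. Leaving out 1 array at a time called 1 to 2 higher and 1 to 1 lower; Mdr1a-/- replicate 2 left out gave the 2. Over all probes, 628 higher and 598 lower became 1120 and 1036 at an adjusted p under 0.10, 1081 and 939 with array weights, 133 and 115 with scan day as a block, 0 and 0 within day 2 (4200 at an unadjusted p under 0.05), and 250 to 783 and 247 to 675 without 1 array; the cause was not tested. The replicate block gave -2.24 for Slc40a1 and 1.85 for Cp, with 1 member higher and 1 lower, and 310 and 286 probes in all. Deviations of same-numbered arrays correlated at 0.06, 0.11, 0.03 and -0.03, so these arrays shared no strong deviation. A pairing with small effects cannot be seen this way. For the uncalled member probes whose values on every array are given, 459 alternative values were counted. These probes include those with the smallest p, and the remaining members were not counted. Of the 459 values, 432 kept their sign, of which 15 passed the threshold and 417 did not. The other 27 changed sign without passing it. Values within scan day 3 had no test and are counted as not passing. These counts include the settings that repeat values by construction. Dim probes limit Mt4, Slc30a3, Slc30a5, Slc30a7 and Slc39a8, each with a probe above background on no Mdr1a-/- array.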
